A study of Mus musculus with 2 samples.

Results

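Bile acid synthesis in the liver was followed through 10 enzymes, Cyp7a1, Cyp8b1, Cyp27a1, Cyp7b1, Hsd3b7, Akr1d1, Amacr, Acox2, Slc27a5 and Baat, which were taken by their symbols from the gene list of the spatial transcriptomics (ST) count tables. Each symbol matched exactly 1 of the 32285 genes in both tables, so all 10 were measured and all 10 are described. The ST data came from 10x Visium, in which a tissue section lies on a slide of barcoded spots and captured RNA molecules are told apart by a unique molecular identifier (UMI). There was 1 liver section of 10 µm from 1 mouse on normal chow (NCD) and 1 from 1 mouse on a high-fat diet (HFD). Both mice were male C57BL/6J that were 5 weeks old when bought. The diets ran for 14 weeks before the treatments of the study began, with 60% fat in the HFD, and both mice then received distilled water by gavage for 8 weeks as the untreated groups of the study. The livers were perfused, frozen in OCT and sectioned. With 1 mouse, 1 section and 1 capture area of spots per diet, these cannot be told apart from the diet. No test between the sections was possible, and every interval given is a 95% interval of counting error only.

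Bile acids are made from cholesterol in hepatocytes and are the main way in which cholesterol leaves the body. In the classic (neutral) route, Cyp7a1 sets the rate by adding the first hydroxyl group to the sterol ring, and Cyp8b1 adds a further one that gives cholic acid in place of the less hydroxylated products. In the alternative (acidic) route, Cyp27a1 oxidises the side chain first and Cyp7b1 then hydroxylates the ring. The common steps of both routes use Hsd3b7 and Akr1d1, which act on the ring, and Amacr and Acox2, which act on the side chain in peroxisomes. Counted with them here are Slc27a5, which attaches coenzyme A to bile acids, and Baat, which attaches taurine or glycine. Hepatocytes around the central vein and around the portal tract of a lobule differ in many such pathways, so each enzyme was also described by lobule position.

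Over tissue there were 3692 spots and 29037988 UMIs in the NCD liver, a median of 4187.5 UMIs per spot, and 3594 spots and 72118803 UMIs in the HFD liver, a median of 18549. The 10 enzymes held 81039 UMIs in the NCD liver and 158307 in the HFD liver. In the NCD capture area the spots off tissue were almost as deep as the tissue. They had a median of 3383 UMIs and 19.1% of all UMIs of that area, against a median of 1175.5 and 2.93% in the HFD area. The off-tissue spots of the NCD capture area held the enzymes at levels near those of the tissue, which is given below beside the results it touches. The capture areas carry the same 4992 spot barcodes, 3173 of which lay over tissue in both areas, so each section was read from its own table. The labels call the samples an immune cell type and name hematopoietic stem cells as the cell line, but the hepatocyte transcripts Ttr, Apoa1, Apoc3, Trf and Rbp4 made up 35263 of every 1000000 UMIs (counts per 1000000 UMIs, CPM) in the NCD liver and 46334 in the HFD liver, so the samples are treated as whole liver tissue. A spot covers several cells, and fewer hepatocytes cannot be told apart from less RNA per hepatocyte. The levels are CPM throughout. Since 1 UMI stands for 1 captured 3′ end, gene length does not enter when levels of different genes are set side by side.

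Lobule position was read from expression, since the positions of spots on the slide were not used here. Spots with at least 1000 UMIs were ranked within each section by the log2 ratio of 7 pericentral genes (Glul, Slc1a2, Oat, Cyp2e1, Cyp1a2, Gulo and Rhbg) to 7 periportal genes (Cyp2f2, Hal, Sds, Hsd17b13, Gls2, Pck1 and Ass1), none of which makes bile acids, and were cut into 3 equal parts called pericentral, middle and periportal. This used 2852 NCD spots (77.2% of the spots over tissue) and 3590 HFD spots. Genes outside the score followed it in both sections. Axin2, Lgr5, Tbx3 and Rgn, which mark hepatocytes near the central vein, were higher in the pericentral part, and Cps1, Arg1 and Cdh1, which mark the portal side, were lower there. The middle part had weaker support, because Hamp and Igfbp2 were highest there in the NCD liver but not in the HFD liver. Hamp2, also chosen as a gene of the middle, was highest in the periportal part of both. It stood at 67.9 CPM there against 60.9 in the middle of the NCD liver, and at 219 against 170 in the HFD liver. In the NCD liver 237 spots (8.31%) and in the HFD liver 351 spots (9.78%) lay within 0.1 of a boundary of the score. The pericentral, middle and periportal parts had median UMIs per spot of 7944, 7550.5 and 4620 in the NCD liver and of 16969, 14522.5 and 24633 in the HFD liver, so the periportal part was the shallowest in one section and the deepest in the other.

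Promoter sequence is shown for the 3 enzymes that were over 1.5-fold higher in the pericentral part of the NCD liver and that have an entry in the promoter table used. Each line holds the 250 bases before the RefSeq start on GRCm38.p6, read 5′ to 3′ on the strand of the gene.
Cyp8b1 (chr9:121916306-121916555, minus strand): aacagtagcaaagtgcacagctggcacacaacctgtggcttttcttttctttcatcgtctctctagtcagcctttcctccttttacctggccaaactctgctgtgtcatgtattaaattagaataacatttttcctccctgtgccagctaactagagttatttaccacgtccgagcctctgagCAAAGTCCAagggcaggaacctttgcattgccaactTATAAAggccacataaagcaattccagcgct
Cyp27a1 (chr1:74713285-74713534, plus strand): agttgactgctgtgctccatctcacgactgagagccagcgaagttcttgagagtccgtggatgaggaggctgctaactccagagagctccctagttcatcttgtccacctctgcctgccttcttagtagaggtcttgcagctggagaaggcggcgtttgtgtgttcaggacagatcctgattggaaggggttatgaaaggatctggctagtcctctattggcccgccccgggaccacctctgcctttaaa
Hsd3b7 (chr7:127800359-127800608, plus strand): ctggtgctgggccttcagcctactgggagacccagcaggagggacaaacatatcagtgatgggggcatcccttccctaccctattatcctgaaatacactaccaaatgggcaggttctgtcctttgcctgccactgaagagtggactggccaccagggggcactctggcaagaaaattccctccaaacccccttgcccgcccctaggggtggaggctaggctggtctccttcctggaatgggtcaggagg
The capitals mark every match to the 5 motifs searched on both strands, the nuclear receptor element AGGTCA and its longer form CAAGGTCA (which contains it), the HNF4-type element CAAAGTCCA, the TATA box sequence TATAAA and the C/EBP-type element TTGCGCAA. The promoter of Cyp8b1 holds CAAAGTCCA with its first base 67 bases before the start, and TATAAA 31 bases before it. Of 32851 mouse promoter windows of this length, 0.384% hold CAAAGTCCA and 12.4% hold TATAAA. The windows of Cyp27a1 and Hsd3b7 hold none of the 5. A match is a description of the letters and not a measured binding site.

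Across the whole sections, Cyp7b1 differed widely between the livers, Cyp27a1, Slc27a5 and Cyp7a1 were lower in the HFD liver by smaller steps, and Cyp8b1 was close. Cyp7b1, the ring hydroxylase of the alternative route, stood at 190 CPM in the NCD liver and 36.2 CPM in the HFD liver, 5.25-fold lower. Cyp27a1, the side-chain hydroxylase, was 1.51-fold lower. Slc27a5, the bile acid coenzyme A ligase and the most abundant of the 10 in both sections, was 1.57-fold lower. These 3 were the members at least 1.5-fold lower in the HFD liver, a share to be read against 5.01% of the 11913 genes with at least 100 UMIs, and 0 of the 10 were at least 1.5-fold higher, against 25.5% of those genes. The median log2 ratio of HFD to NCD was -0.20 over the 10 enzymes and 0.24 over all 11913 genes, so changes are also given relative to the median gene. Relative to that median it was -2.64 for Cyp7b1, -0.90 for Slc27a5, -0.84 for Cyp27a1 and -0.69 for Cyp7a1.

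**Figure D1:**
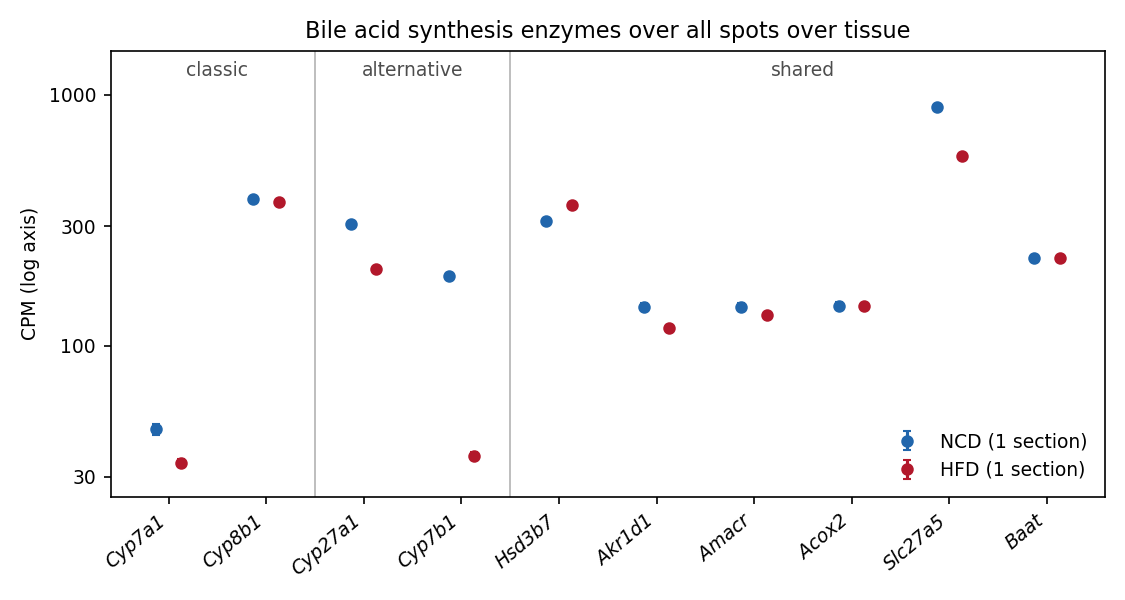
Level of each bile acid enzyme, in CPM on a log axis, over all spots over tissue of the NCD liver (blue) and the HFD liver (red), 1 section each, with 95% Poisson intervals of counting error that are mostly smaller than the points. Cyp7b1 shows the widest gap between the sections (190 against 36.2 CPM), and Baat and Acox2 show almost none.

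Cyp7a1, the rate-setting enzyme of the classic route (chr4:6265612-6275633, minus strand, GRCm38), was the least abundant of the 10 in both sections. It stood at 46.4 CPM (43.9 to 48.9) in the NCD liver from 1346 UMIs and at 34.1 CPM (32.7 to 35.4) in the HFD liver from 2456 UMIs, a log2 ratio of -0.44 (-0.54 to -0.35). Its level in the NCD liver was 70.0 CPM in the pericentral part, 43.2 in the middle and 18.2 in the periportal part. In the HFD liver the levels were 50.9, 35.8 and 21.04 CPM. Both sections thus went down from the pericentral to the periportal side, and the span was wider in the NCD liver. The log2 ratio of pericentral to periportal was 1.94 (1.68 to 2.22) in the NCD liver, the steepest of the 10 enzymes, and 1.28 (1.13 to 1.42) in the HFD liver, and these intervals did not overlap. Between the sections, Cyp7a1 was therefore lower in the HFD liver in the pericentral part, by a log2 ratio of -0.46 (-0.59 to -0.32), and in the middle, by -0.27 (-0.44 to -0.10), while in the periportal part the log2 ratio of 0.21 (-0.06 to 0.49) had an interval on both sides of 0. Along 10 equal bins of the score, Cyp7a1 went from 86.0 CPM in the most pericentral bin to 10.8 CPM (6.18 to 17.6) in the most periportal bin of the NCD liver, a 7.96-fold span, and from 58.6 to 15.2 CPM in the HFD liver, a 3.85-fold span.

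Cyp8b1, the sterol 12-alpha-hydroxylase (chr9:121914356-121916305, minus strand), was the most abundant enzyme of either route. It stood at 384 CPM (377 to 391) in the NCD liver and 372 CPM (368 to 377) in the HFD liver, a log2 ratio of -0.04 (-0.08 to -0.01). The direction was not settled, since the log2 ratio came to 0.12 in spots of 5000 to 20000 UMIs, 0.11 with the mean of CPM per spot and 0.32 with the mean off-tissue spot subtracted. Its levels in the pericentral, middle and periportal parts were 449, 389 and 287 CPM in the NCD liver. They were 468, 408 and 281 CPM in the HFD liver. Its gradient was shallower than that of Cyp7a1, with log2 ratios of pericentral to periportal of 0.65 (0.57 to 0.72) and 0.74 (0.69 to 0.78) whose intervals overlapped. It was near 1.5-fold, since it came to 0.54 in the NCD liver with Cyp2e1 and Cyp2f2 left out of the score, 0.58 there with the off-tissue spots added, and 0.48 in the HFD liver in spots of 5000 to 20000 UMIs. For each UMI of Cyp7a1 there were 8.28 UMIs of Cyp8b1 (7.83 to 8.77) in the NCD liver and 10.9 (10.49 to 11.4) in the HFD liver. That ratio went up towards the portal side, from 6.41 to 15.8 in the NCD liver and from 9.20 to 13.4 in the HFD liver.

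Cyp27a1 (chr1:74713574-74737892, plus strand) stood at 305 CPM (299 to 312) in the NCD liver and 202 CPM (199 to 205) in the HFD liver, a log2 ratio of -0.60 (-0.63 to -0.56). Its pericentral, middle and periportal levels were 393, 298 and 197 CPM in the NCD liver and 293, 209 and 134 CPM in the HFD liver. It was lower in the HFD liver at every position, with log2 ratios of -0.42 (-0.48 to -0.37), -0.51 (-0.58 to -0.44) and -0.56 (-0.64 to -0.47), each of them short of 1.5-fold. The pericentral to periportal log2 ratios were 1.00 (0.91 to 1.09) and 1.13 (1.07 to 1.19), with overlapping intervals. In both sections its level went down at each of the 9 steps between the 10 bins, from 414 to 149 CPM and from 329 to 98.0 CPM. Its ratio between the sections was short of 1.5-fold in spots of 5000 to 20000 UMIs, with a log2 ratio of -0.41, and with the mean of CPM per spot, with -0.47.

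Cyp7b1 (chr3:18071950-18243338, minus strand) showed the largest difference between the sections among the 10. From 190 CPM (185 to 195) in the NCD liver, with 5517 UMIs, its level was 36.2 CPM (34.8 to 37.6) in the HFD liver, with 2611 UMIs out of a deeper library, a log2 ratio of -2.39 (-2.46 to -2.32). The difference was present at each position. The pericentral, middle and periportal levels were 235, 194 and 124 CPM in the NCD liver against 52.4, 38.9 and 23.0 CPM in the HFD liver. The log2 ratios were -2.17 (-2.27 to -2.07), -2.32 (-2.44 to -2.20) and -2.43 (-2.58 to -2.29). The highest of the 10 HFD bins, at 58.5 CPM (52.9 to 64.4), lay below the lowest NCD bin, at 117 CPM (100.1 to 136). Its gradient was steeper in the HFD liver, with a pericentral to periportal log2 ratio of 1.19 (1.05 to 1.32) against 0.92 (0.81 to 1.03), and these intervals did not overlap. The off-tissue spots of the 2 capture areas differed in the same way, with 176 and 23.0 CPM.

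**Figure D2:**
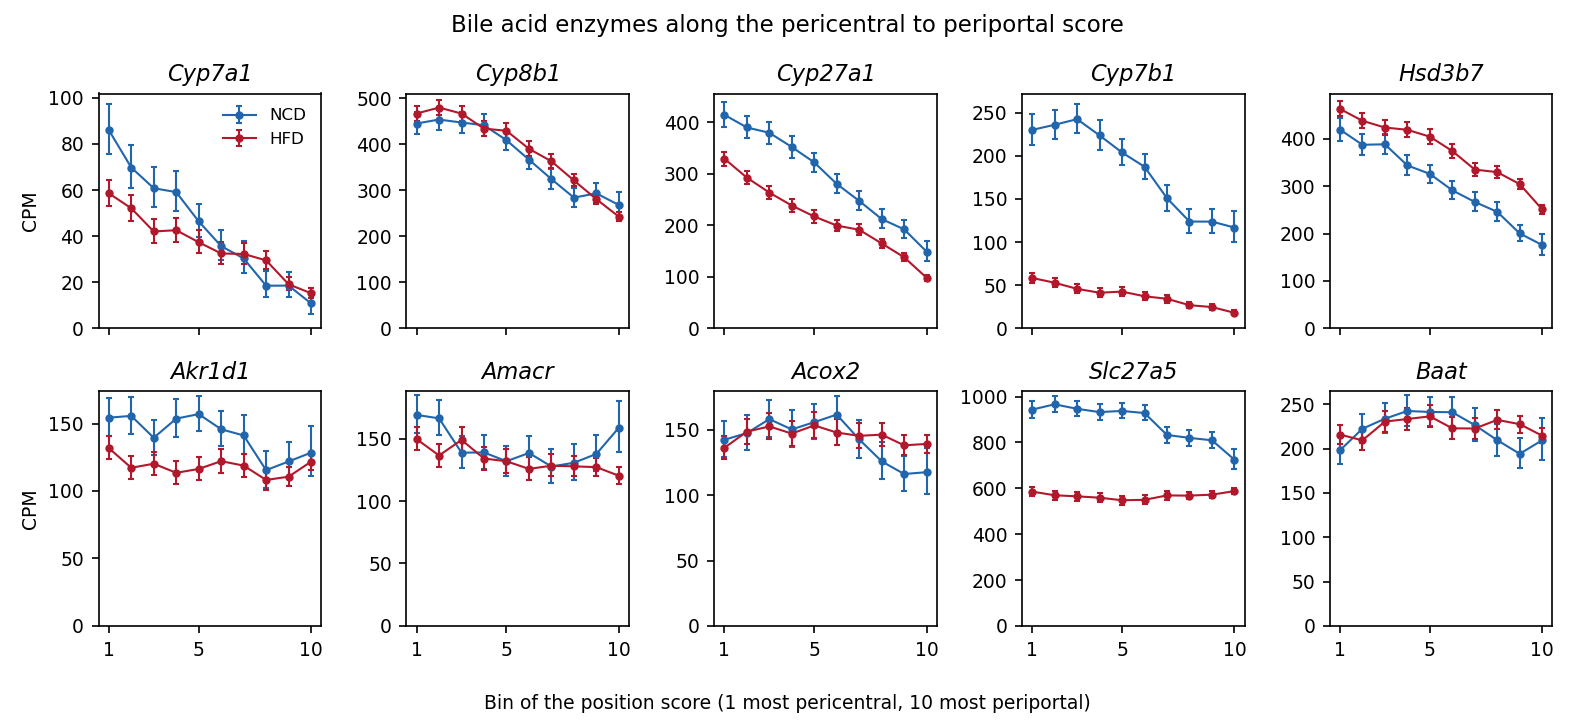
Level of each enzyme in CPM (vertical axis, from 0) in 10 equal bins of spots from the most pericentral (1) to the most periportal (10), for the NCD liver (blue) and the HFD liver (red), with 95% Poisson intervals of counting error. Cyp7a1, Cyp8b1, Cyp27a1, Cyp7b1 and Hsd3b7 go down towards the portal side in both sections, Slc27a5 does so in the NCD liver only, and Baat and, in the HFD liver, Acox2 stay nearly level.

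Cyp7b1 is known as a male-biased gene of mouse liver and Cyp7a1 as a gene under the circadian clock, so genes of both kinds were read from lists that were written with earlier results of these data known. Of 7 male-biased genes, 6 were at least 1.5-fold lower in the HFD liver, against 5.01% of all genes. Cyp2d9, a cytochrome P450, stood at 1253 and 297 CPM, Hsd3b5, a steroid dehydrogenase, at 61.4 and 0.0832 CPM (6 UMIs), and Slco1a1, an organic anion carrier, at 128 and 0.194 CPM. The exception was Mup20, a urinary pheromone protein, which was higher with a log2 ratio of 0.80. Hsd3b5 and Slco1a1 reached 100 UMIs through the NCD liver alone, so their direction follows from that minimum. Of 6 female-biased genes, 3 had at least 100 UMIs, and they reached that number through the HFD liver alone, so their direction follows from that minimum. Cyp2b9 stood at 2.96 and 166 CPM, Cyp2a4 at 0.103 CPM (3 UMIs) and 14.6 CPM, a log2 ratio of 7.14 (5.59 to 9.42), and Cyp2b13 was not detected in the NCD liver and at least 196-fold higher in the HFD liver by a floor of 3 counts over the section. Transcripts tied to sex itself did not differ in this way. The Y-linked genes Ddx3y, at 27.3 CPM (25.5 to 29.3) and 25.3 CPM (24.2 to 26.5), and Eif2s3y, at 30.6 and 29.96 CPM, were present at like levels in the NCD and HFD livers, and Xist, the transcript of the inactive X chromosome, had 1 and 2 UMIs, as in male tissue. Of 10 clock genes with at least 100 UMIs, 5 were at least 1.5-fold higher in the HFD liver, against 25.5% of all genes, and 1, Arntl, was lower with a log2 ratio of -1.27, against 5.01%. Dbp, a transcription factor of the clock that acts on Cyp7a1, stood at 25.2 and 75.8 CPM, and Tef, its relative, at 36.5 and 41.6 CPM. Per2 stood at 3.51 and 14.3 CPM, and Ciart at 0.689 and 12.1 CPM. Ciart reached 100 UMIs through the HFD liver alone, so its direction follows from that minimum. The time of day of collection is not given in the sources used here, and the part of either set in the levels of Cyp7b1 and Cyp7a1 was not tested.

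Counted together, Cyp7a1 and Cyp8b1 stood at 430 CPM in the NCD liver and 407 CPM in the HFD liver, a log2 ratio of -0.08 (-0.11 to -0.05). Cyp27a1 and Cyp7b1 together stood at 495 and 238 CPM, a log2 ratio of -1.06 (-1.09 to -1.02). The alternative pair was thus the larger one in the NCD liver and the smaller one in the HFD liver. Of the UMIs of these 4 enzymes, the classic pair held 46.5% (45.9 to 47.1) in the NCD liver and 63.0% (62.6 to 63.5) in the HFD liver. This share does not depend on the total of the library, and it does not measure the flow through either route. It was higher in the HFD liver at each position, with 45.2%, 46.8% and 48.7% in the pericentral, middle and periportal parts of the NCD liver and 60.1%, 64.1% and 65.9% in those of the HFD liver. Along the bins it ran from 45.2% at the pericentral end to 51.2% at the portal end of the NCD liver and from 57.6% to 69.0% in the HFD liver. In the off-tissue spots it was 49.8% and 61.3%.

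**Figure D3:**
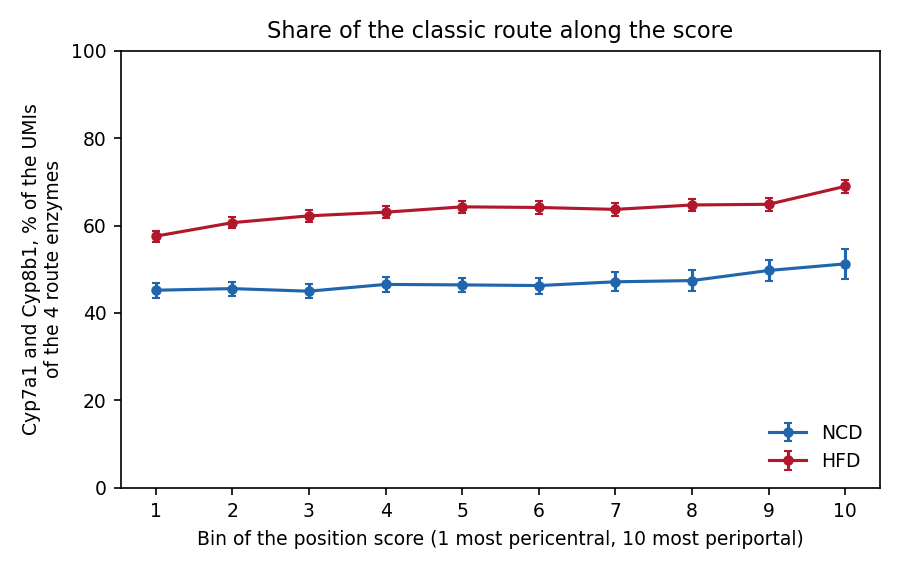
Share of Cyp7a1 and Cyp8b1 in the UMIs of the 4 route enzymes, in percent (vertical axis), in 10 equal bins of spots from the most pericentral (1) to the most periportal (10), with 95% Clopper-Pearson intervals of counting error. The HFD liver (red, 57.6% to 69.0%) lies above the NCD liver (blue) in every bin, and both are highest in the most periportal bin.

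Most of that gap came from the alternative pair. Within the pericentral, middle and periportal parts the classic pair had log2 ratios of HFD to NCD of 0.00, 0.04 and -0.01, all nearer to 0 than over the whole sections, and the alternative pair had -0.86, -0.99 and -1.03. Cyp7a1 alone was at -0.46, -0.27 and 0.21 in these parts. The periportal part, where all 4 enzymes are lowest, held 26.3% of the UMIs of the 3 parts in the NCD liver and 42.2% in the HFD liver. What these unequal weights add to the levels over the whole sections was not tested. Within the alternative route there were 1.61 UMIs of Cyp27a1 for each of Cyp7b1 (1.55 to 1.66) in the NCD liver and 5.58 (5.36 to 5.82) in the HFD liver. This ratio hardly moved with position, from 1.53 to 1.67 in the NCD liver and from 5.37 to 5.81 in the HFD liver. Of the enzymes that hydroxylate the ring at the same carbon in the 2 routes, Cyp7a1 had 0.244 UMIs for each UMI of Cyp7b1 (0.230 to 0.259) in the NCD liver and 0.941 (0.890 to 0.994) in the HFD liver. In the NCD liver that ratio went down from 0.297 in the pericentral part to 0.146 in the periportal part, and in the HFD liver it stayed between 0.914 and 0.972.

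Hsd3b7, which oxidises the ring hydroxyl at the start of the common steps (chr7:127800604-127803802, plus strand), was the only one of the 10 whose interval lay above 0 between the whole sections. Its level was 315 CPM (309 to 322) in the NCD liver and 362 CPM (358 to 367) in the HFD liver, a log2 ratio of 0.20 (0.17 to 0.24). Relative to the median gene that is -0.04, and it turns to -0.19 when the UMIs of the 5 hepatocyte markers take the place of the library total. It was pericentral like the route enzymes, at 393, 309 and 216 CPM in the pericentral, middle and periportal parts of the NCD liver and 440, 383 and 294 CPM in those of the HFD liver. The pericentral to periportal log2 ratio was 0.87 (0.78 to 0.95) in the NCD liver and 0.58 (0.54 to 0.63) in the HFD liver, just short of 1.5-fold, and the intervals did not overlap. The excess in the HFD liver was smallest in the pericentral part, with a log2 ratio of 0.16 (0.11 to 0.22), and largest in the periportal part, with 0.45 (0.37 to 0.52). Hsd3b7 overlaps the gene model Gm49388 on its own strand, as Akr1d1 does Gm7463 and Cyp7b1 does Gm23686, and reads that lie in both genes of such a pair cannot be assigned with certainty.

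Akr1d1, the reductase that saturates the sterol ring (chr6:37530173-37568815, plus strand), stood at 143 CPM (139 to 148) in the NCD liver and 118 CPM (115 to 120) in the HFD liver, a log2 ratio of -0.28 (-0.33 to -0.23). Its levels by position were 149, 153 and 120 CPM in the NCD liver and 123, 117 and 115 CPM in the HFD liver, so its gradient was slight. The log2 ratio of HFD to NCD was -0.28 in the pericentral part, -0.38 in the middle and -0.07 (-0.18 to 0.04) in the periportal part. Because Hsd3b7 and Akr1d1 lay on opposite sides of 0, the UMIs of Hsd3b7 per UMI of Akr1d1 were 2.20 (2.12 to 2.28) in the NCD liver and 3.07 (2.999 to 3.15) in the HFD liver.

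The side-chain enzymes of the peroxisome were close between the sections. Amacr, the racemase (chr15:10981756-10996626, plus strand), stood at 143 and 132 CPM, a log2 ratio of -0.12 (-0.17 to -0.06). It had a shallow pericentral excess in both sections, with pericentral to periportal log2 ratios of 0.15 (0.04 to 0.26) and 0.22 (0.15 to 0.28). Acox2, the branched-chain acyl-CoA oxidase (chr14:8225511-8259353, minus strand), stood at 144 CPM (140 to 149) in the NCD liver and 145 CPM (142 to 147) in the HFD liver, with a log2 ratio of 0.00 (-0.05 to 0.06). By position Acox2 was at 149, 155 and 123 CPM in the NCD liver and at 145, 149 and 141 CPM in the HFD liver. Its interval excluded 0 in the periportal part alone, where the log2 ratio of HFD to NCD was 0.20 (0.10 to 0.30).

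The conjugating enzymes parted from each other. Slc27a5 (chr7:12988346-12998192, minus strand) stood at 895 CPM (885 to 906) in the NCD liver and 569 CPM (564 to 575) in the HFD liver, a log2 ratio of -0.65 (-0.68 to -0.63) that came to -0.50 with the mean off-tissue spot subtracted. Baat, the amino acid transferase of the last step (chr4:49489422-49506557, minus strand), stood at 224 CPM in both, with a log2 ratio of -0.00 (-0.04 to 0.04). There were thus 3.995 UMIs of Slc27a5 for each of Baat (3.89 to 4.11) in the NCD liver and 2.54 (2.497 to 2.59) in the HFD liver. By position Slc27a5 was at 956, 911 and 799 CPM in the NCD liver but at 573, 556 and 576 CPM in the HFD liver. The pericentral to periportal log2 ratio was accordingly 0.26 (0.21 to 0.31) in the NCD liver and -0.01 (-0.04 to 0.03) in the HFD liver. The difference between the sections was larger in the pericentral part, with a log2 ratio of -0.74 (-0.78 to -0.70), than in the periportal part, with -0.47 (-0.51 to -0.43). Baat was level in both sections, with pericentral to periportal log2 ratios of 0.06 (-0.03 to 0.16) and -0.03 (-0.08 to 0.03).

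Put together by position, 5 of the 10 enzymes were at least 1.5-fold higher in the pericentral than in the periportal part of the NCD liver (Cyp7a1, Cyp27a1, Cyp7b1, Hsd3b7 and Cyp8b1, in falling order), against 6.91% of the 7748 genes with at least 100 UMIs. In the HFD liver 4 were, the same enzymes without Hsd3b7, against 4.74% of 10800 genes. No enzyme was 1.5-fold lower in the pericentral part of either section, where 2.74% and 4.19% of the genes were. The median log2 ratio was 0.48 over the 10 enzymes and 0.12 over all genes in the NCD liver, and 0.40 against 0.08 in the HFD liver. The 4 enzymes grouped here by route and Hsd3b7 made up all the strong gradients, and the other common steps ran from a slight pericentral excess to none. The enzymes of the common steps taken as a sum had pericentral to periportal log2 ratios of 0.33 and 0.16, against 0.77 and 0.78 for the classic pair and 0.97 and 1.14 for the alternative pair. The gradient of 6 enzymes had intervals that did not overlap between the sections. Cyp7a1, Hsd3b7, Akr1d1, Acox2 and Slc27a5 were steeper in the NCD liver and Cyp7b1 in the HFD liver. For Akr1d1 the difference was all but gone in spots of 5000 to 20000 UMIs, with pericentral to periportal log2 ratios of 0.15 and 0.15, and with the mean of CPM per spot, with 0.12 and 0.0997. For Cyp7b1 it narrowed to 0.78 and 0.86 in spots of 5000 to 20000 UMIs and turned to 3.73 and 1.26 with the mean off-tissue spot subtracted. Genes used to check the score also differed in gradient between the sections, such as Rgn, with log2 ratios of 1.71 and 1.23, and Cps1, with -0.40 and -1.06, so the parts of the 2 sections may not cover the same stretch of lobule, and what this adds to the differences in gradient was not tested.

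**Figure D4:**
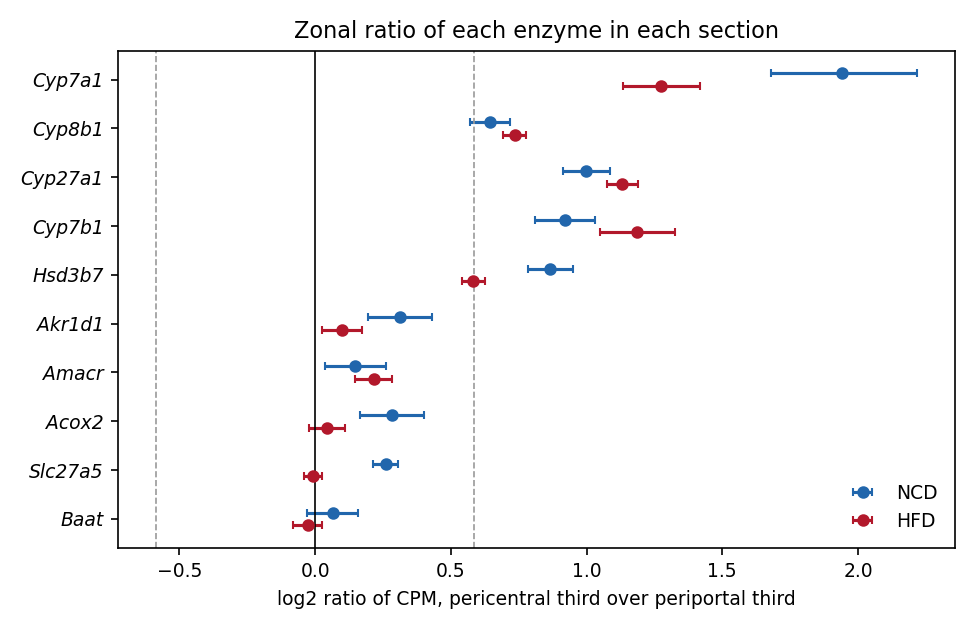
Log2 ratio of CPM in the pericentral part to CPM in the periportal part (horizontal axis) for each enzyme in the NCD liver (blue) and the HFD liver (red), with 95% conditional binomial intervals of counting error and dashed lines at 1.5-fold. Cyp7a1 lies farthest to the right in both sections (1.94 and 1.28), and Baat and, in the HFD liver, Slc27a5 lie at 0.

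Between the sections at a given position, 2 enzymes were at least 1.5-fold lower in the HFD liver in the pericentral part (Cyp7b1 and Slc27a5, against 4.85% of genes), the same 2 in the middle (against 4.43%) and Cyp7b1 alone in the periportal part (against 4.43%). None was 1.5-fold higher, where 23.3%, 25.4% and 25.7% of genes were. The median log2 ratio of the 10 enzymes was -0.20, -0.16 and -0.05 in the pericentral, middle and periportal parts. Markers of other cells moved with the sections as well. The summed bile duct markers Krt7, Krt19, Epcam, Sox9 and Spp1 stood at 49.9 CPM in the NCD liver and 200.4 CPM in the HFD liver. Spp1 alone made up 43.5 and 187 CPM of these sums, and the study also names Spp1 as characteristic of its NASH-associated macrophages. Krt7 was at 0.551 and 1.26 CPM, Krt19 at 0.930 and 2.68, Epcam at 2.38 and 4.94, and Sox9 at 2.58 and 4.70. None of the 5 was at 0. The 4 haemoglobin genes stood at 6676 and 1246 CPM. The part of these in the levels of the enzymes was not tested, and leaving mitochondrial and haemoglobin genes out of the total moved each log2 ratio between the sections by the same -0.05. Dividing by the UMIs of the hepatocyte markers instead moved each by -0.39. All 10 enzymes were then below 0 and 5 were at least 1.5-fold lower, where the median gene was at -0.15. Baat and Acox2 were each at -0.39, Cyp8b1 at -0.44 and Amacr at -0.51, so their closeness holds for CPM only.

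**Figure D5:**
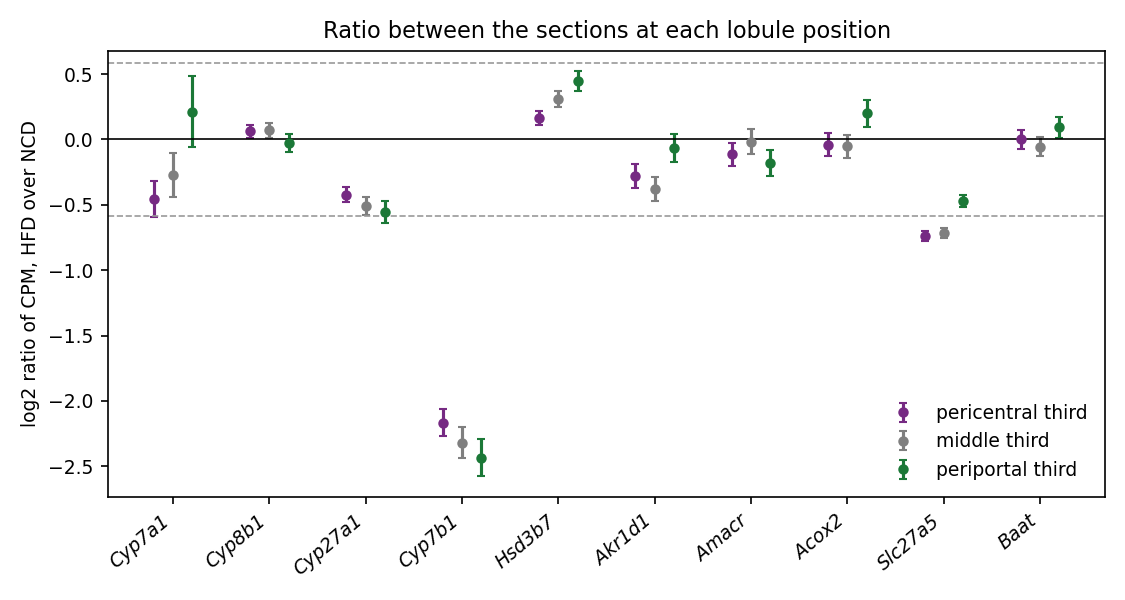
Log2 ratio of CPM in the HFD liver to CPM in the NCD liver (vertical axis) for each enzyme in the pericentral (purple), middle (grey) and periportal (green) parts, with 95% conditional binomial intervals of counting error and dashed lines at 1.5-fold. Cyp7b1 lies between -2.43 and -2.17 at all positions, and Cyp7a1 lies below 0 in the pericentral part and above it, with an interval that includes 0, in the periportal part.

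The off-tissue spots limit the NCD values in particular. In the NCD liver Cyp7a1 stood at 45.3 CPM off tissue against 46.4 CPM over tissue, Cyp8b1 at 422 against 384, Cyp27a1 at 295 against 305 and Slc27a5 at 930 against 895. In the HFD liver the enzymes were lower off tissue, with Cyp7a1 at 26.6 against 34.1 CPM, Cyp8b1 at 273 against 372 and Baat at 146 against 224. Taking the mean off-tissue spot away from each tissue spot left no positive sum for Cyp7a1 or Cyp27a1 in the periportal part of the NCD liver, and it left 2 enzymes lower by 1.5-fold between the sections.

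Further genes of bile acid synthesis were read from a list of 15, of which 14 had at least 100 UMIs. Between the sections 4 of these were at least 1.5-fold higher in the HFD liver, against 25.5% of all genes, 2 were lower, against 5.01%, and their median log2 ratio was 0.32, close to the 0.24 of all genes. The most abundant were Scp2, a peroxisomal sterol carrier and thiolase, at 3781 and 4340 CPM, and Slc27a2, a very long-chain acyl-CoA synthetase, at 915 and 866 CPM. The widest ratios were those of Ch25h, the 25-hydroxylase of cholesterol, from 7 and 94 UMIs (log2 ratio 2.43, 1.34 to 3.79), and Cyp46a1. Cyp46a1, the 24-hydroxylase, stood at 1.58 and 3.63 CPM from 46 and 262 UMIs. Both genes reached 100 UMIs only through the HFD liver. The remaining genes past 1.5-fold are named because they completed the count, after their values were seen. Cyp2a12, which hydroxylates bile acids anew at the ring, stood at 253 and 455 CPM (log2 ratio 0.85), and Cyp39a1, an oxysterol hydroxylase, at 12.5 and 19.1 CPM (0.61). Cyp2c70, which makes the muricholic acids of the mouse, stood at 218 and 118 CPM (-0.89, -0.93 to -0.84), and Por, the electron donor of microsomal cytochromes P450, at 434 and 251 CPM (-0.79, -0.83 to -0.76). Por shared the pericentral slope of the route enzymes, with pericentral to periportal log2 ratios of 1.14 and 1.00, while Cyp39a1, with -1.39 and -0.996, and Cyp2a12, with -0.86 and -0.34, were higher on the portal side in both sections.

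Of 10 regulators of these genes, none was past 1.5-fold between the sections or between positions in either section. Between the sections 25.5% of all genes were higher and 5.01% lower. From pericentral to periportal 6.91% were higher and 2.74% lower in the NCD liver, and 4.74% and 4.19% in the HFD liver. With shares this small, a count of 0 among 10 genes says little about the regulators. The most abundant were Hnf4a, at 153 and 187 CPM, and Rxra, at 131 and 155 CPM, both nuclear receptors. The widest ratios were those of Mafg, a repressor of bile acid genes, with a log2 ratio of 0.51, and Nr5a2, an activator of Cyp7a1 and Cyp8b1, with -0.45 (-0.57 to -0.33). Nr1h4, the bile acid receptor, stood at 81.2 CPM in both sections.

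The genes whose course along the score was most like that of each route enzyme were found by Pearson correlation of log2(CPM + 1) over 20 points, the 10 bins of both sections, among 2562 genes with at least 1000 UMIs in each section. The values were centred within each section. The points share 2 libraries and 1 score, so the correlations only describe a shared slope. They were Cyp2c67, Aqp9 and Gsta3 for Cyp7a1 (r = 0.989 to 0.987), Mgst1, Elovl3 and Cyp7b1 for Cyp8b1 (0.991 to 0.985), Cyp3a11, Cyp2c50 and Cyp2c38 for Cyp27a1 (0.993 to 0.990), and Cyp4a10, Cyp8b1 and Cyp2c50 for Cyp7b1 (0.986 to 0.982). Among the 10 enzymes themselves, Cyp7a1 ran most like Hsd3b7 (r = 0.978) and least like Baat (0.266).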

How the data were processed

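ST libraries of 1 NCD and 1 HFD liver section were used. The deposited files hold the authors' raw counts of UMIs by gene and spot, not normalized, made with Space Ranger (1.3.1 in the file headers) on mm10 per the labels of the submitters' processing notes, for all spots and for spots called over tissue. Counts of a gene were pooled over spots and expressed per 1000000 UMIs of the same spots (CPM). CPM have exact Poisson intervals, log2 ratios exact conditional binomial intervals and shares exact Clopper-Pearson intervals, at the 95% level. They cover counting error only, and with 1 section per group there was no test. Spots under 1000 UMIs were left out of positions, and a pseudocount of 1 was used in the score. Genes with at least 100 UMIs over the groups compared formed the background of 1.5-fold differences. A list is named by its 2 most abundant genes and the 2 with the widest HFD to NCD ratio, provided that they had 100 UMIs or more. Others were named after their values were seen, where a count of 5 or fewer needed them or where directions were opposite between the sections. The enzymes, lists, tests and alternatives were chosen with earlier results of these data known. Alternatives changed the UMI limits, the weighting of spots, the denominator, the off-tissue signal, the score, the part of the score and the fold. Of the gene identifiers, 32158 of 32285 were in GENCODE M21 (GRCm38), and 5 of the 10 enzymes had an entry in the RefSeq promoter table. Marker lists for macrophages, endothelial and stellate cells were also summed, with log2 ratios of HFD to NCD of 0.40, 0.61 and 1.56. Y-linked genes and Xist were added last, after seeing the data, to check the stated sex. The intervals and the cut into 3 parts were tried on simulated counts. These held counting error only, without RNA spread off tissue or variation between mice, so they do not test those limits. The software was Python 3.11.15 with pandas 2.3.3, numpy 2.4.6, matplotlib 3.10.9 and scipy 1.17.1.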

Additional observations from a re-analysis of the deposited data

Results flagged for a closer look

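The gradients of 2 genes outside the 10 enzymes ran in opposite directions in the sections. The pericentral to periportal log2 ratio of Cyp2c70, the muricholic acid enzyme, was 0.31 (0.21 to 0.40) in the NCD liver and -0.79 (-0.86 to -0.71) in the HFD liver. That of Nr0b2, the bile acid-induced repressor of Cyp7a1, was -0.27 (-0.45 to -0.10) in the NCD liver and 0.17 (0.06 to 0.27) in the HFD liver. In both cases the difference between the sections was not tested, since each rests on 1 section.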

How the results depend on the processing

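With 1 liver per diet the alternatives show how far a value depends on its computation and not how far it varies between mice. No paired analysis was possible because each group has 1 sample and the labels share only the number 1. Of the values of the route pairs, the common steps, the classic share and the counts of genes, 72 stayed within their intervals, or within 1.5 times the count, 62 moved, and 0 of those past 1.5-fold changed sign. Of the 10 enzymes, between 2 and 5 were at least 1.5-fold lower in the HFD liver, and between 4 and 6 (NCD) and 3 and 5 (HFD) were at least 1.5-fold higher in the pericentral part. Depth limits Cyp7a1 most, with 137 UMIs in the periportal part of the NCD liver.

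Values below are log2 ratios, in the order classic, alternative and common steps. When off-tissue spots of at least 1000 UMIs were added, the classic pair was at -0.12 between the livers, the classic share was 47.1% in the NCD liver, and the pericentral to periportal ratios were 0.68, 0.83 and 0.29 in the NCD liver and 0.74 for the classic pair in the HFD liver. With the mean of CPM per spot, the ratios between the livers were 0.079, -0.94 and -0.23, and the pericentral to periportal ratios in the HFD liver were 0.72 and 1.07 for the pairs. With the mean of the off-tissue spots subtracted, the ratios between the livers were 0.23, -1.17 and -0.20, the pericentral to periportal ratios in the HFD liver were 0.84, 1.22 and 0.18, and those in the NCD liver were 5.20 and 1.03 for the alternative pair and the common steps, with no value for the classic pair, Cyp7a1 or Cyp27a1 because nothing was left of them in the periportal part. Without mitochondrial and haemoglobin genes, the ratios between the livers were -0.13, -1.11 and -0.32, and the common steps were at 0.30 from pericentral to periportal in the NCD liver. Per UMI of the hepatocyte markers, the ratios between the livers were -0.48, -1.45 and -0.66. By position they were -0.37, -0.34 and -0.39 for the classic pair and -1.24, -1.37 and -1.41 for the alternative pair in the pericentral, middle and periportal parts. The pericentral to periportal ratios were 0.88, 1.08 and 0.44 in the NCD liver and 0.90, 1.26 and 0.28 in the HFD liver. In spots of 5000 to 20000 UMIs, the pairs were at 0.076 and -0.90 between the livers and at 0.52 and 0.87 from pericentral to periportal in the HFD liver, where in the NCD liver the alternative pair was at 0.90 and the common steps at 0.29. In spots of at least 3000 UMIs, the classic pair was at -0.017 between the livers in the middle part. With outer parts of 25% of the spots each, the pairs were at 0.86 and 1.29 in the HFD liver, and in the NCD liver the alternative pair was at 1.05 and the common steps at 0.37. With equal weight per gene in the score, the HFD ratios were 0.67, 1.09 and 0.13. Without Cyp2e1 and Cyp2f2 in the score, they were 0.65, 1.05 and 0.12, and the classic pair was at 0.67 in the NCD liver. At 2-fold, 1288 genes were higher and 245 lower between the livers, against 3032 and 597 at 1.5-fold. From pericentral to periportal 148 were higher and 89 lower in the NCD liver (535 and 212 at 1.5-fold), and 184 and 180 in the HFD liver (512 and 453). For single enzymes, the ratio between the livers ranged over the alternatives from -2.79 to -2.26 for Cyp7b1, from -0.84 to -0.18 for Cyp7a1 and from -0.44 to 0.32 for Cyp8b1. The cause of these shifts was not tested.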
